A study of Mus musculus with 4 samples.

Results

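Kinesins are motor proteins that use ATP to move along microtubules or to take them apart, and the CENP proteins build the centromere and the kinetochore, the structures by which a chromosome is held on the spindle. These 2 gene groups were followed in pro-B cells, early precursors of B cells, with and without floxed alleles of Tnpo3, the gene of a nuclear import receptor. All gene symbols beginning with Kif or Kifc and a digit, or with Cenp and a letter, were taken, which gave 63 of the 24411 rows of the count table, 44 of kinesin names and 19 of CENP names. Of the 63, 54 passed the filter on low counts and were tested. The kinesin names include the pseudogene Kif4-ps, the antisense RNA Kif16bos and Kif1bp, whose product binds a kinesin and is not a motor.

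The cells had been sorted as B220+CD43+HSA+ (HSA is CD24) from C57BL/6 mice, 2 of genotype Tnpo3+/+ mb1Cre (controls, mice 55 and 69) and 2 of genotype Tnpo3fl/fl mb1Cre (knockouts, mice 51 and 63). All 4 mice thus carried mb1Cre, which drives Cre from Cd79a in the B lineage. No ages stand in the labels. Each library came from its own mouse, so the spread is between animals with n = 2. Total counts were 26211372 to 40647384 per library. Tnpo3 itself was at 159 and 148 CPM in controls 55 and 69, against 79.7 and 68.8 CPM in knockouts 51 and 63 (adjusted p of 0.0108 by edgeR, and 0.0603 without knockout 63). CPM are counts scaled to the library size, with TMM factors.

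Markers of other cells moved with the genotype. All 15 pro-B marker genes had counts in every library, but 9 of them fell and 1, Spn, which encodes CD43, rose, and their summed level went from 12099 and 13252 CPM in the controls to 5458 and 4993 CPM in the knockouts. Of 16 dendritic cell markers 15 rose, with summed levels of 978 to 1995 CPM in controls, against 9579 to 12553 CPM in knockouts. Of 12 NK cell markers 8 rose by edgeR, and 1 by limma-voom (40.7 to 44.8 CPM in controls, 253 to 988 CPM in knockouts), and of 12 T cell markers 7 rose (99 to 102 CPM and 853 to 1112 CPM). Most of the T cell sum in knockouts 51 and 63 was Cd4, at 590 and 516 CPM. Cd3d, Cd3e and Cd3g were at 14.9, 5.99 and 13.6 CPM in knockout 51, but at 1.16, 0.631 and 2.22 CPM in knockout 63. Most of the NK sum in knockout 63 was Klrd1, at 155 CPM. Of 14 myeloid markers 12 fell (3793 to 4953 CPM and 61.2 to 224 CPM), and of 8 tested erythroid markers 6 fell, with sums of 513 to 714 CPM in controls, against 809 to 1646 CPM in knockouts. Most of that sum was Tfrc, the transferrin receptor gene, at 574 and 360 CPM in controls, against 747 and 1612 CPM in knockouts (adjusted p of 0.0800 by edgeR), and the list without it summed to 141 to 153 CPM and to 33.6 to 61.3 CPM. The 4 globin genes were at 0 in every library. The mix of cells itself was not measured, and any part it has in the results below was not tested. In bulk samples fewer cells of a type and less RNA per cell cannot be told apart.

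Mitotic kinesins work when a cell divides. They push the spindle poles apart, bring chromosomes to the spindle centre, trim microtubule ends and build the midzone at which the cell is cut. Transport kinesins instead carry vesicles, organelles and proteins in cells that need not divide. At the centromere the histone variant CENP-A marks the site, an inner layer of CENP proteins sits on it throughout the cell cycle, and outer proteins such as CENP-E, itself a kinesin, and CENP-F join in mitosis. Pro-B cells are known for bursts of division between steps of antigen receptor recombination.

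Of the 54 kinesin and CENP genes tested, 18 were lower and 4 higher in the knockout at an adjusted p under 0.05 (edgeR's quasi-likelihood test, Benjamini-Hochberg adjustment over all 13507 genes tested). Over all genes tested 10.9% were lower and 11.3% higher. The lower genes were 11 of 13 tested mitotic kinesins, both outer kinetochore genes, 2 of 14 inner centromere genes, Cenpj, Kif19a and the transport kinesin Kif21b. The 4 higher genes were Kif1a, Kif5a, Kif7 and Kif9. Kif2a, which works at spindle poles and in neurons, was counted with the other kinesins and did not pass. In 29 of the 54 genes both knockouts lay below both controls, a pattern that 34.6% of all genes showed, and in 9 both lay above, as in 33% of all genes. The median log2 fold change was -1.001 for mitotic kinesins, -0.42 for inner centromere genes and 0.08 for transport kinesins, against -0.02 for all genes tested. No test of the difference between these groups was made. The number of lower genes was 11 without knockout 51 and 5 without knockout 63, and that of higher genes 2 without knockout 51.

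**Figure D1:**
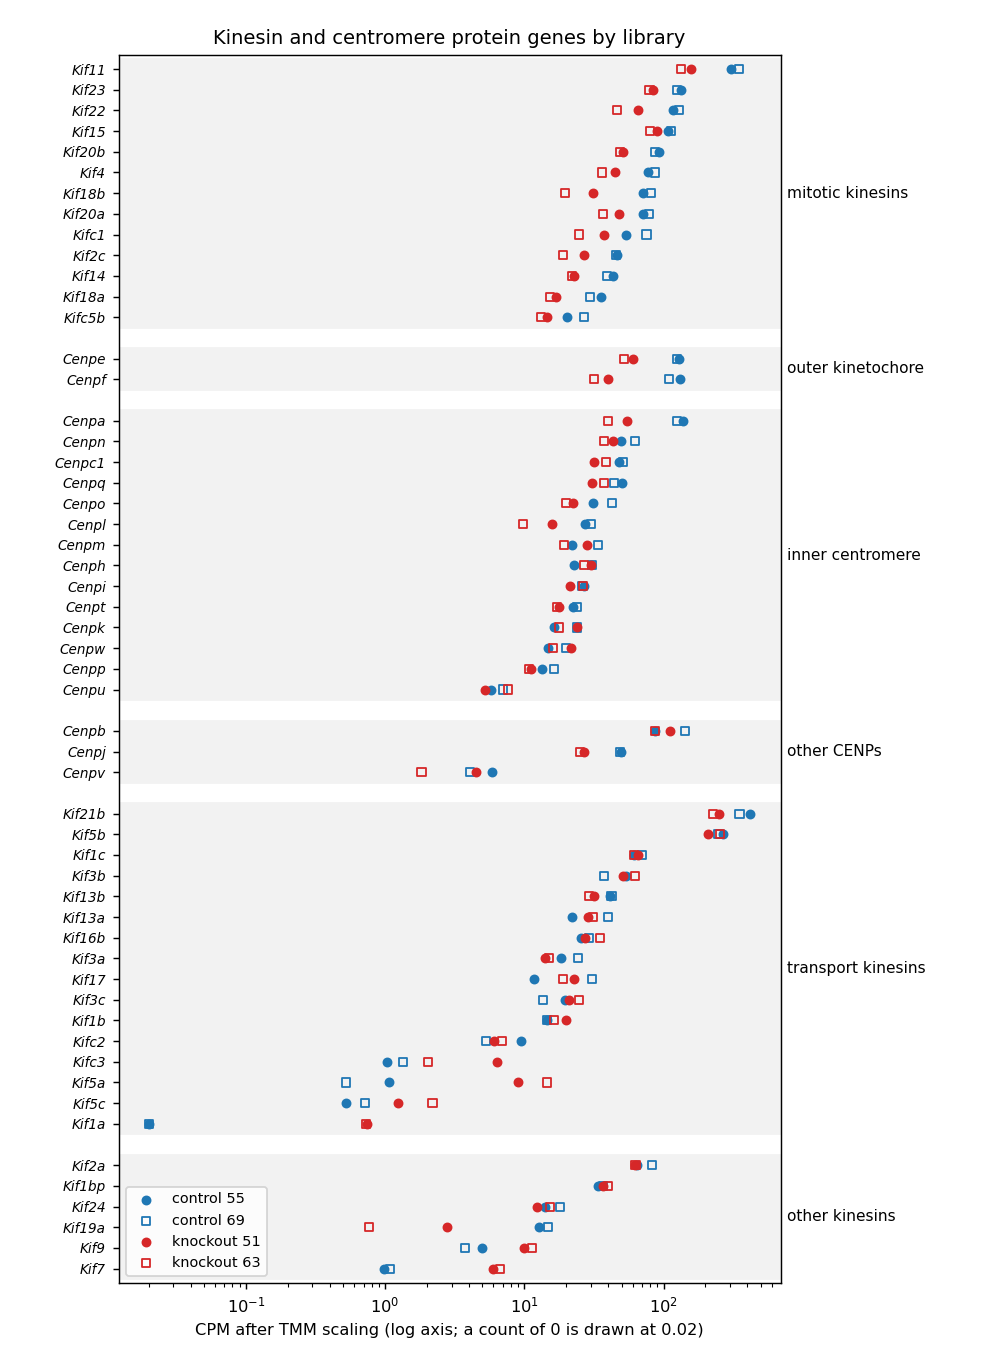
Level of each of the 54 tested genes in each library, in CPM on a log axis, ordered by role and then by mean level in controls. Blue marks are controls, red marks knockouts, and each mark is 1 mouse. In the 13 mitotic kinesin rows and in Cenpe and Cenpf the red marks lie left of the blue ones, whereas in 7 of the 16 transport kinesin rows the genotypes overlap.

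Kif11 encodes the motor that slides the spindle poles apart, and it was the most abundant mitotic kinesin. It was at 303 and 346 CPM in controls 55 and 69, against 157 and 134 CPM in knockouts 51 and 63. The log2 fold change of Kif11 came to -1.16 ± 0.16 (SE; adjusted p of 0.0111 by edgeR). The gene spans 37376403 to 37421859 on the plus strand of chromosome 19 (GRCm38). Kif18b, whose product works at microtubule plus ends, fell furthest of the mitotic kinesins, from 71.7 and 81.2 CPM to 31.4 and 19.5 CPM (-1.58 ± 0.26). The 2 genotypes were apart by more than their spread in both genes.

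Motors of chromosome movement fell alongside. Kif22, which drives chromosome arms away from the poles, was at 117 and 130 CPM in the controls, against 65.0 and 46.0 CPM in the knockouts. Kif4, a chromosome-bound motor of condensation and the midzone, was at 76.8 and 86.4 CPM, against 45.0 and 36.0 CPM. Knockout libraries thus held 45.1% of the control level of Kif22 and 49.6% of that of Kif4. Kif18a, which dampens chromosome oscillation, went from 35.7 and 29.7 CPM to 17 and 15.3 CPM, and Kif2c, a microtubule depolymerase of the centromere, from 46.0 and 45.4 CPM to 26.7 and 18.9 CPM. These 4 genes had log2 fold changes between -1.15 and -1.001.

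Kinesins of the midzone and of cytokinesis formed the remainder of the group. Kif23, the motor of the centralspindlin complex, was at 134 and 125 CPM in controls, against 84.0 and 79.3 CPM in knockouts, the smallest fall of the 11 (log2 fold change of -0.67 ± 0.13). Kif20a was at 71.7 and 78.8 CPM, against 48.1 and 37.0 CPM, and Kif20b at 92.7 and 86.3 CPM, against 51.2 and 48.6 CPM. Kif14, which acts with them in cytokinesis, was at 43.4 and 39.5 CPM, against 22.9 and 22.0 CPM. In none of the 4 did the genotypes overlap. Of the exon sequence of Kif20a 29.3% overlaps that of Cdc23 on the opposite strand, which was at 58.4 CPM on average in controls and 53.6 CPM in knockouts (adjusted p of 0.56 by edgeR). The overlap of Kif4 with Pdzd11 is 15.1%, and Pdzd11 was at 27.9 and 33.8 CPM on average (adjusted p of 0.26 by edgeR). Without a stated strand setting the reads of such pairs cannot be told apart.

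Kifc1 encodes a minus-end motor that bundles spindle poles. It was at 54.0 and 75.5 CPM in controls, against 37.5 and 24.6 CPM in knockouts, close to the threshold at an adjusted p of 0.0492 by edgeR. Its near copy Kifc5b was at 20.2 and 26.8 CPM, against 14.6 and 13.1 CPM, with an adjusted p of 0.0696 by edgeR, and it passed with DESeq2, with sex as a block and without control 55. Of the 50-base words of the longest Kifc1 transcript 47.6% also occur in other genes, mostly Kifc5b, so reads may be split between them and both values are uncertain. Kif15, a second motor able to slide spindle poles, had the mildest difference, from 108 and 112 CPM to 89.4 and 79.7 CPM, and did not pass (-0.38 ± 0.13, adjusted p of 0.0932 by edgeR). Kif2b was at 0 in every library.

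Over the 14 mitotic kinesin rows, the summed level was 1174 and 1264 CPM in controls 55 and 69, against 690 and 574 CPM in knockouts 51 and 63. All 13 tested genes were lower in knockout 63 than in knockout 51, as were 48.9% of all genes tested. This was not particular to mitotic kinesins. In the lists read below it held for 19 of 19 spindle and midzone genes and 22 of 24 mitotic regulators. It also held for 26 of 31 other kinetochore genes and 30 of 32 S phase genes, but for 7 of 16 transport kinesins. Knockout 63 also had the lower pro-B marker sum and the higher dendritic sum of the 2 knockouts, and the lower NK, T and myeloid sums. Each genotype held 1 female and 1 male, by the level of Xist against that of genes on the Y chromosome. The median log2 ratio of mitotic kinesins was -1.09 within females and -0.81 within males. Without knockout 63 the calls of 10 of the 11 genes were lost, at adjusted p-values of 0.0588 to 0.178 by edgeR, and Kif18b alone passed. Without knockout 51 Kif14, Kif18a, Kif20a, Kif20b and Kif23 were lost (0.0538 to 0.103), without control 55 Kif18a (0.0538), and without control 69 Kifc1 (0.0752). The 11 log2 fold changes stayed between -1.97 and -0.585 in all of these fits.

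**Figure D2:**
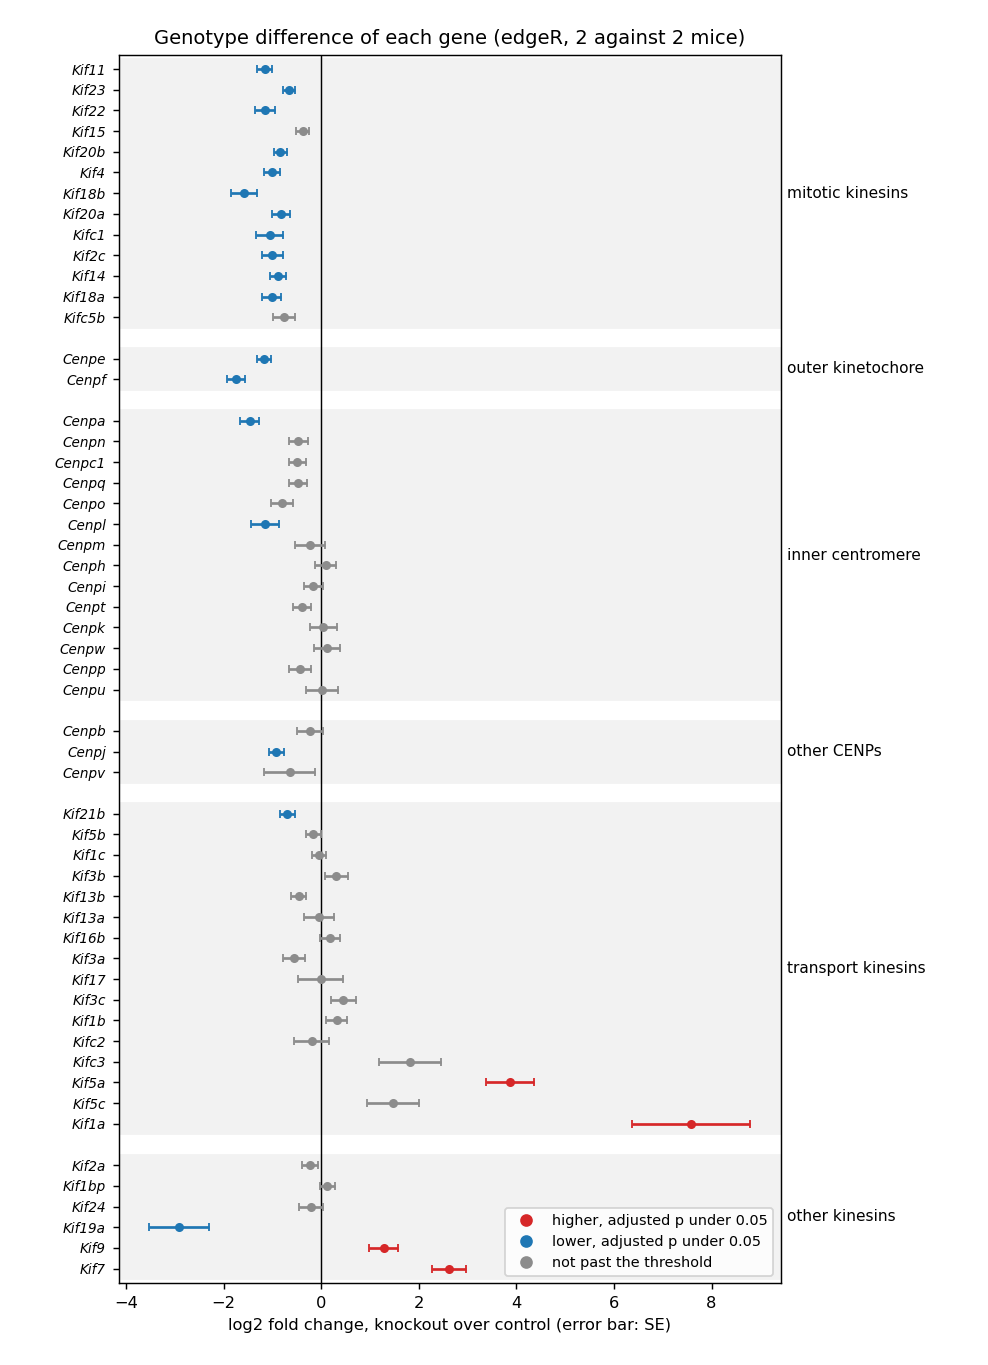
Log2 fold change of knockout over control for the 54 tested genes, with the standard error from edgeR, in the order of the plot of levels. Blue points passed the threshold as lower and red ones as higher. The mitotic kinesins lie between -1.58 and -0.38. The fitted value of Kif1a, which had no counts in controls, depends on the prior count and is no measure of size.

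Cenpf and Cenpe, the outer kinetochore genes, had the lowest adjusted p-values of all 54 genes. Cenpf, whose product binds microtubules and motor proteins at the kinetochore, was at 131 and 109 CPM in controls 55 and 69, against 40.2 and 31.6 CPM in knockouts 51 and 63. The log2 fold change of Cenpf came to -1.74 ± 0.18 (adjusted p of 0.00681 by edgeR). Cenpe, the kinesin that carries chromosomes along spindle fibres, was at 128 and 125 CPM, against 60.8 and 51.9 CPM (-1.17 ± 0.14, adjusted p of 0.00869 by edgeR). Both passed in each of the 11 alternative fits, Cenpe at adjusted p-values up to 0.0474. Their summed level was 259 and 234 CPM in the controls, against 101 and 83.5 CPM in the knockouts.

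Cenpa, the gene of the centromeric histone variant, fell while most genes of the layer built on it did not pass. It was at 137 and 125 CPM in controls, against 54.6 and 40.2 CPM in knockouts, a log2 fold change of -1.47 ± 0.19 and an adjusted p of 0.00985 by edgeR. The gene lies on the plus strand of chromosome 5, from 30666777 to 30674830 (GRCm38). Cenpc1, whose product links CENP-A nucleosomes to the outer kinetochore, was at 47.9 and 51.1 CPM, against 31.9 and 38.8 CPM (-0.49 ± 0.18, adjusted p of 0.105 by edgeR). The ratio of Cenpa to Cenpc1 CPM was therefore 2.87 and 2.45 in controls 55 and 69, against 1.72 and 1.04 in knockouts 51 and 63.

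The second inner gene that fell was Cenpl, whose product with that of Cenpn binds the CENP-A nucleosome. Cenpl was at 27.1 and 29.99 CPM in controls, against 15.9 and 9.76 CPM in knockouts (-1.16 ± 0.28, adjusted p of 0.0411 by edgeR). It did not pass without control 69 (0.0555) or without knockout 63 (0.142, log2 fold change of -0.85). Cenpn was at 49.3 and 62.2 CPM, against 43.4 and 37.3 CPM and did not pass (-0.47 ± 0.19, adjusted p of 0.135 by edgeR). With sex as a block both passed, Cenpl at an adjusted p of 0.0128 and Cenpn at 0.0451 by edgeR. The difference between the partners was not tested.

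The other inner genes ranged from -0.81 for Cenpo to 0.12 for Cenpw. Cenpo, of the subcomplex that recruits a mitotic kinase, was at 31.1 and 42.8 CPM in controls, against 22.3 and 19.9 CPM in knockouts (adjusted p of 0.0540 by edgeR), and it passed in 4 of the 11 alternative fits. Of its exon sequence 22.5% overlaps other genes on the opposite strand. In 6 of the 12 inner genes that did not pass, both knockouts were below both controls, and in the other 6 the genotypes overlapped. Over all genes tested, 34.6% had both knockouts below both controls. Cenph and Cenpk, which share a subcomplex, illustrate the overlap. Cenph was at 22.9 and 30.7 CPM in controls, against 30.2 and 26.8 CPM in knockouts, and Cenpk at 16.4 and 23.9 CPM, against 23.9 and 17.7 CPM. The 14 inner genes summed to 488 and 537 CPM in controls 55 and 69 and to 358 and 325 CPM in knockouts 51 and 63. Genes for further inner proteins stand in the table under other symbols, and of these Apitd1 (CENP-S), Stra13 (CENP-X) and Itgb3bp (CENP-R) did not pass, with log2 fold changes of -0.54, 0.14 and -0.46. Apitd1 and Stra13 were looked up after the values of the others were known.

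3 CENP genes stand outside the inner and outer layers. Cenpj encodes a scaffold protein of centrioles and was at 49.8 and 48.7 CPM in controls, against 26.9 and 25.1 CPM in knockouts (-0.92 ± 0.16, adjusted p of 0.0176 by edgeR). It was lost without knockout 51 (0.0750) and without knockout 63 (0.0984), while its log2 fold change stayed between -0.97 and -0.87. Cenpb, whose product binds a short motif in centromeric repeats, was at 87.4 and 144 CPM in controls, against 111 and 87.0 CPM in knockouts and overlapped between genotypes. Cenpv, at 1.83 to 5.84 CPM, overlapped as well.

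Most transport kinesins did not pass, and the exceptions went both ways. Of 16 tested, 1 fell, 2 rose and 13 did not pass, near the 10.9% lower and 11.3% higher over all genes tested. Kif21b, a motor that also slows microtubule growth, had the highest CPM of all 63 genes. It was at 421 and 352 CPM in controls 55 and 69, against 251 and 228 CPM in knockouts 51 and 63 (-0.69 ± 0.16, adjusted p of 0.0367 by edgeR). This call was lost without control 55 (0.0912) and without either knockout, at up to 0.207. Kif5b, the ubiquitous conventional kinesin heavy chain, was the next most abundant transport kinesin, at 270 and 246 CPM, against 208 and 253 CPM, and the genotypes overlapped.

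Kif5a and Kif1a, kinesins best known from neurons, rose from low levels. Kif5a was at 1.07 and 0.526 CPM in controls, against 9.04 and 14.6 CPM in knockouts, with a log2 fold change of 3.87 ± 0.50 and an adjusted p of 0.00987 by edgeR. It passed in all 11 alternative fits. Even so, the ratio of Kif5a to Kif5b CPM reached only 0.0434 and 0.0578 in knockouts 51 and 63. Kif1a had 0 counts in both controls and 30 and 22 counts in knockouts 51 and 63, that is 0.743 and 0.730 CPM. Against a floor of 3 counts per control library this was at least 6.48-fold higher (adjusted p of 0.0210 by edgeR). Kif1a passed the filter on low counts only through the knockouts, and it was lost without knockout 51 (0.0620) and without knockout 63 (0.0664). The third conventional heavy chain gene, Kif5c, was at 0.520 and 0.714 CPM in controls, against 1.24 and 2.19 CPM in knockouts and did not pass (adjusted p of 0.110 by edgeR).

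Among the other transport kinesins, the Kif3 genes, whose products form motors of cilia and vesicles, moved in different directions without passing. Kif3a was at 18.4 and 24.4 CPM in controls, against 14.2 and 15 CPM in knockouts. Kif3b was at 54.1 and 37.2 CPM, against 51.2 and 62.1 CPM, and Kif3c at 19.6 and 13.7 CPM, against 20.9 and 24.7 CPM. The knockouts were thus lower for Kif3a, overlapped for Kif3b and were higher for Kif3c. Kif1c was nearly level at 61.1 and 70.3 CPM, against 65.5 and 61.6 CPM. Kifc3, a minus-end motor at cell junctions, was at 1.04 and 1.35 CPM in controls, against 6.37 and 2.02 CPM in knockouts, and passed without knockout 63 and with DESeq2 only. The 13 genes that did not pass ranged from -0.55 to 1.82 on the log2 scale.

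Summed over 17 rows, transport kinesins were at 971 and 907 CPM in the controls, against 764 and 801 CPM in the knockouts. Without Kif21b the sums were 550 and 556 CPM in controls, against 514 and 573 CPM in knockouts, which overlap. The ratio of the summed mitotic to the summed transport kinesin level was 1.21 and 1.39 in controls 55 and 69, against 0.903 and 0.717 in knockouts 51 and 63. Kif11 over Kif5b, the leading gene of each kind by CPM per kilobase in controls, gave 1.13 and 1.41 in controls and 0.753 and 0.529 in knockouts. Kif21b lay within the spread of Kif5b by that measure, was higher by CPM and fell itself, and a ratio to Kif21b was not taken.

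**Figure D3:**
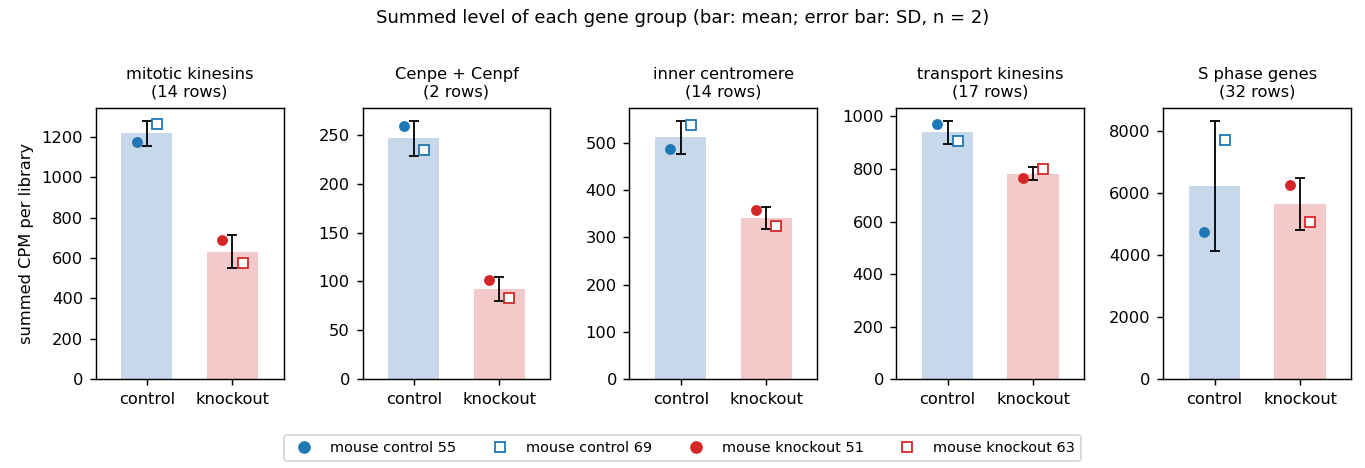
Summed CPM per library for the mitotic kinesins, the outer kinetochore genes Cenpe and Cenpf, the inner centromere genes, the transport kinesins and a list of S phase genes. Bars are means over 2 mice from 0, error bars the SD, and marks the single mice. Controls and knockouts are apart in the first 4 panels, and the S phase sums of 4744 and 7729 CPM in controls enclose those of the knockouts.

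Kinesins with other roles gave the largest fold changes among genes with counts in both genotypes, aside from Kif5a. Kif19a, a depolymerase that sets the length of cilia, fell from 12.7 and 14.7 CPM in controls to 2.80 and 0.763 CPM in knockouts (-2.92 ± 0.62, adjusted p of 0.0286 by edgeR). The knockouts differed from each other, and the log2 fold change was -2.28 without knockout 63 and -4.16 without knockout 51, with the call kept in both. Kif7, a regulator of Hedgehog signalling at the cilium tip, rose from 0.978 and 1.09 CPM to 5.97 and 6.74 CPM (2.62 ± 0.36, adjusted p of 0.0109 by edgeR). It passed in all 11 alternative fits. Of its exon sequence 20.3% overlaps genes on the opposite strand, among them Ticrr, which was at 53.0 and 77.9 CPM in controls, against 50.9 and 41.9 CPM in knockouts, far above Kif7.

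Kif9, a kinesin of motile cilia, was at 4.98 and 3.76 CPM in controls, against 9.96 and 11.3 CPM in knockouts (1.28 ± 0.29, adjusted p of 0.0343 by edgeR). It was lost without control 69 (0.0652) and without knockout 51 (0.0907) or 63 (0.140). Kif2a, a depolymerase of spindle poles and of neurons related to Kif2c, was at 64.9 and 82.7 CPM, against 62.6 and 62.9 CPM and did not pass (-0.23 ± 0.17, adjusted p of 0.35 by edgeR). Placed with the mitotic kinesins, Kif2a would lie outside their range of fold changes and would not be lower in knockout 63 than in knockout 51. The counts of mitotic kinesins thus depend on the roles chosen. Its relative Kif2c fell, as given above, but the difference between the pair was not tested. Kif1bp, at 33.7 to 40.0 CPM, and Kif24, a regulator of centrioles at 12.4 to 18.0 CPM, did not pass either. The 9 genes that were not tested had at most 0.489 CPM in any library. Of these Kif2b, Kif12 and Kif4-ps were at 0 in all 4, and Kif26a had 4 and 13 counts in the controls and 0 in both knockouts.

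Levels of different genes can be compared per kilobase of transcript. Cenpa led in controls at 145 ± 9.48 CPM per kilobase (SD, n = 2), and Kif11 (67.5 ± 6.29) and Kif22 (58.2 ± 4.45) followed. Next came Kif5b (42.8 ± 2.76) and Kif21b (42.4 ± 5.37), which lie within each other's spread. Kif23 (38.1 ± 1.77) came next. In knockouts Cenpa still led at 52.3 ± 11.2, followed by Kif5b at 38.2 ± 5.30 and Kif11 at 30.1 ± 3.32. Kif18b went from rank 14 to rank 27 of the 63, and Cenph from rank 16 to rank 9. The lengths are the median of annotated coding transcripts, and which transcripts the cells used was not measured. For Cenpa the length was 0.906 kilobases from 2 transcripts, whereas its longest annotated transcript has 3806 bases. Its first rank therefore depends on the length chosen.

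Genes that work with these proteins were taken from lists of the pathway. The counts of each list stand beside 10.9% lower and 11.3% higher over all genes tested by edgeR. Of 31 other kinetochore and checkpoint genes 14 fell and 0 rose by edgeR (21 lower and 0 higher at an unadjusted p under 0.05, and 0 higher by DESeq2 and limma-voom), with a median log2 fold change of -0.71. Ndc80 and Spc25, subunits of the microtubule-binding complex, fell from 77.8 ± 4.79 to 32.3 ± 2.73 CPM and from 55.2 ± 0.97 to 28.4 ± 1.70 CPM (SD, n = 2). Spag5, a spindle protein, fell from 135 ± 7.23 to 63.4 ± 6.72 CPM. Without knockout 63 Spc25 and Spag5 did not pass (0.0668 and 0.0557), nor did Spc25 without knockout 51 (0.0843). Hjurp, the CENP-A chaperone, was at 20.9 and 22.0 CPM in controls, against 11.7 and 6.27 CPM in knockouts, just short of the threshold at 0.0538.

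Of 19 spindle and midzone genes 14 fell and 0 rose by edgeR (18 and 0 unadjusted, and 0 higher by DESeq2 and limma-voom), with a median of -0.79. Prc1, the midzone bundler to which Kif4 binds, fell from 137 ± 8.41 to 58.6 ± 9.67 CPM, and Nusap1, Hmmr and Tpx2, which organise spindle microtubules, had log2 fold changes of -1.29, -1.32 and -0.90. Of 24 regulators of entry into and exit from mitosis 12 fell and 0 rose by edgeR (15 and 1 unadjusted, and 0 higher by DESeq2 and limma-voom), with a median of -0.76. Foxm1, a transcription factor of mitotic genes, fell from 171 ± 11.8 to 91.0 ± 8.31 CPM. Cdc25b, a phosphatase that activates mitotic kinase, fell from 399 ± 45.2 to 33.8 ± 13.9 CPM, and Cdc20 and Ccna2 had log2 fold changes of -1.31 and -1.09. Without knockout 63 Tpx2, Foxm1, Cdc20 and Ccna2 did not pass (0.109, 0.0867, 0.0531 and 0.0923).

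Of 32 S phase genes, by contrast, 0 passed in either direction by edgeR, DESeq2 or limma-voom, and the median was -0.10. At an unadjusted p under 0.05 edgeR gave 2 lower, Rrm2 and Rfc3, and 0 higher. Their sum was 4744 and 7729 CPM in controls 55 and 69, so the controls differed more from each other than from the knockouts, at 6257 and 5064 CPM. By edgeR the adjusted p-values were lowest for Rrm2 (0.12), Rfc3 (0.13), Prim1 (0.14) and Pola1 (0.15). Rrm2 passed without control 55 (0.031) and with sex as a block (0.00981), and Rfc3 with sex as a block (0.0392). Mitotic kinesins did not share this spread, as their sums in the 2 controls were 1174 and 1264 CPM.

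The partners of transport kinesins were read as well. Of 9 tested, 3 fell and 0 rose by edgeR (4 lower and 1 higher unadjusted, and 0 higher by DESeq2 and limma-voom). Over all genes tested 10.9% were lower and 11.3% higher by edgeR, and a list of 9 is small. Trak1, which couples kinesin to mitochondria, fell from 204 ± 38.1 to 89.9 ± 12.5 CPM, and the light chain genes Klc4 and Klc3 fell by 0.94 and 1.75 on the log2 scale. The calls were lost without knockout 63 (0.0704, 0.121 and 0.125 for Trak1, Klc4 and Klc3), for Klc4 and Klc3 also without knockout 51 (0.0882 and 0.0937) and for Klc3 without control 55 (0.116). Mapk8ip1, a scaffold on kinesin light chains, was at 0.459 and 0.752 CPM in controls, against 1.36 and 2.49 CPM in knockouts and did not pass (0.0921).

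Promoters were read for 2 short words known from cell cycle genes. Genes used late in the cell cycle often carry the cell cycle genes homology region (CHR), at which the complex of MuvB proteins binds, together with CCAAT boxes bound by NF-Y. RefSeq windows from 250 bases before to 50 bases after the start site (GRCm38.p6) were at hand for 53 of the 63 genes and for 10230 of the genes tested. The words TTTGAA and TTCGAA for the CHR and CCAAT for the box were searched on both strands. The 4 windows of genes that fell are shown because they carry both words, and those of Cenpc1 and Kif1c as genes that did not pass and lack the CHR word, Cenpc1 having 1 CCAAT word and Kif1c none. Each runs 5′ to 3′ on the gene's strand, with the words in capitals, which read TTCAAA and ATTGG where they lie on the opposite strand. The windows are chr19:37376132-37376431 (plus) for Kif11, chr11:102925075-102925374 (minus) for Kif18b, chr1:189688037-189688336 (minus) for Cenpf, chr5:30666636-30666935 (plus) for Cenpa, chr5:86065534-86065833 (minus) for Cenpc1 and chr11:70700298-70700597 (plus) for Kif1c.
Kif11: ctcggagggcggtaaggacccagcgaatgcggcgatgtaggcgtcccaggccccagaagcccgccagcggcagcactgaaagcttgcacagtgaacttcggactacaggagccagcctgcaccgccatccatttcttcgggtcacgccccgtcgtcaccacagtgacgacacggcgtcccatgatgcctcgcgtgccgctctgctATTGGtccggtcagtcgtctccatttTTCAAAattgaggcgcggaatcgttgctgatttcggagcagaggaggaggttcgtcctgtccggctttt
Kif18b: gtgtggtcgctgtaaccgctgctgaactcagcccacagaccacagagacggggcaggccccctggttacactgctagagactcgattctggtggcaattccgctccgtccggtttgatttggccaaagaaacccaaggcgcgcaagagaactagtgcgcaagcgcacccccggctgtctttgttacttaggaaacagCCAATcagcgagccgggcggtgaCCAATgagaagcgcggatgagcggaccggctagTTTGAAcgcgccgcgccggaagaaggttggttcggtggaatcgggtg
Cenpf: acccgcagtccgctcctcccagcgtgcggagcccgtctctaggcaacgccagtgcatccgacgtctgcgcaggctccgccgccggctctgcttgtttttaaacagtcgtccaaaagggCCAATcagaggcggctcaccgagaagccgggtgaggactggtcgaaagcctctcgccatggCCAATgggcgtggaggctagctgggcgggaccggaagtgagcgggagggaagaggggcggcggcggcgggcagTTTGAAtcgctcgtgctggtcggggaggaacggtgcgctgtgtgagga
Cenpa: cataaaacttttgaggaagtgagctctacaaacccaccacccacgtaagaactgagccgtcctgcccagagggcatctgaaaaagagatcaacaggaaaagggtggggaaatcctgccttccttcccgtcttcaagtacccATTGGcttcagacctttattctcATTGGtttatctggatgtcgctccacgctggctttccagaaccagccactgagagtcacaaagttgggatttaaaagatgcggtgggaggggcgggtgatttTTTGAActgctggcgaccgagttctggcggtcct
Cenpc1: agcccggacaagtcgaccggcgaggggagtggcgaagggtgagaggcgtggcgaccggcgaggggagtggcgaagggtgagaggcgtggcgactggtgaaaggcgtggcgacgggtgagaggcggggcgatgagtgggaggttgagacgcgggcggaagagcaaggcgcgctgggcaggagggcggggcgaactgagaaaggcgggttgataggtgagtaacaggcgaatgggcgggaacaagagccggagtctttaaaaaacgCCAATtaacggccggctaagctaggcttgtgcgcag
Kif1c: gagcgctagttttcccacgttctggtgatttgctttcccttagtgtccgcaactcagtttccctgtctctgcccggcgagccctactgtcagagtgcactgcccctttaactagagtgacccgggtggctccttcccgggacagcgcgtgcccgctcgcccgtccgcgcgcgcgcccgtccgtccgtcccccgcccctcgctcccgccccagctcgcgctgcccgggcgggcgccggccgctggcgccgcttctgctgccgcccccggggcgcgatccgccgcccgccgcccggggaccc

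In these windows the CHR word of Kif11 begins 19 bases before the start site, that of Cenpf at the third transcribed base, that of Kif18b 4 and that of Cenpa 17 bases into the transcript. CCAAT boxes lie upstream of it in each, at 45 bases before the start in Kif11, 30 and 53 in Kif18b, 71 and 132 in Cenpf, and 86 and 109 in Cenpa. Of the mitotic kinesins 11 of 13 with a window held a CHR word, Kif2b and Kif18a being without, and 8 held both words. Among the 11 are Kif14, Kif2c and Kif4, whose windows lie wholly inside the annotated gene. The Kif14 window begins at 136467598 and the gene at 136466343, and that of Kif4 at 100625815 and the gene at 100625737. On the minus strand, the Kif2c window reaches up to 117179022, whereas the gene begins at 117182639. Of 14 inner centromere genes 5 held the CHR word, namely Cenpa and Cenpl, which fell, and Cenpm, Cenpn and Cenpw, which did not pass. Of 11 transport kinesins 0 held it.

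Read by genotype call, the CHR word stood in 12 of 15 windows of kinesin and CENP genes that fell, or 80%, in 6 of 27 of those that did not pass and in 0 of 3 of those that rose. Kif15 and Kifc5b, the 2 tested mitotic kinesins that did not pass, hold it too. Calls and roles thus largely coincide here, and among mitotic kinesins the word did not separate the calls. Among all tested genes with a window 13.8% held the word, and among all lower genes 17.8%. Cenpe, Cenpj and Kif18a fell and lack it in their windows. The windows of Kif14, Kif2c and Kif4, which hold the word, and of Cenpj, which lacks it, lie inside the annotated gene. Of the genes that did not pass, Cenpm, which holds the word, and Cenpo, Cenpq, Cenpt and Kif17, which lack it, also have such windows. Both words together stood in 10 of the 15 and in 5.73% of all tested genes. A match is only these letters in the window, and no binding was measured.

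**Figure D4:**
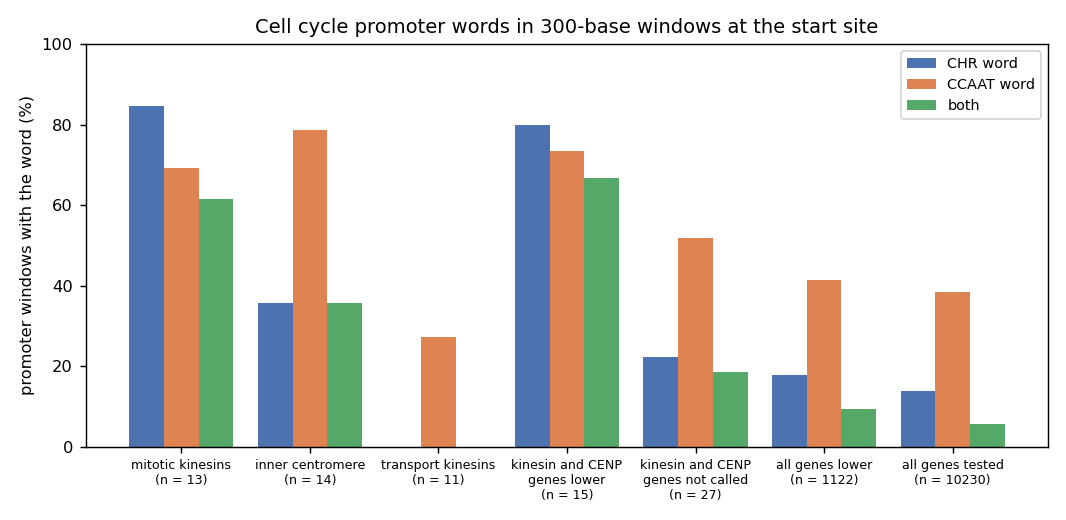
Share of promoter windows that hold the CHR word, the CCAAT word or both, in percent, for gene groups by role, by genotype call and for all genes, with the number of windows under each. The CHR bar reaches 84.6% for mitotic kinesins, 35.7% for inner centromere genes and 0% for transport kinesins. For mitotic kinesins it counts Kif14, Kif2c and Kif4, and for inner centromere genes Cenpm, whose windows lie inside the annotated gene.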

How the data were processed

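RNA of sorted pro-B cells from 4 mice was measured, 1 library each. The authors deposited raw counts per gene symbol. Per the submitters' processing notes, featureCounts (Subread 2.0.0), STAR 2.7.4a, SAMtools 1.10, deepTools 3.3.2, DESeq2 and the builds GRCm38 and mm10 were used. Annotation and strand setting: not given in the sources used here. Their second table, of normalized values, was not used. No molecular identifiers are described, so floors cover counting error only.

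The test was edgeR 4.0.16 under R 4.3.3. A gene had to pass filterByExpr (minimum count 10, minimum total 15), TMM gave the scaling, and the comparison used the quasi-likelihood F test over 4 libraries without covariates, with Benjamini-Hochberg adjustment over 13507 genes and a threshold of 0.05. Every adjusted p without a named tool comes from this test. SE is the log2 fold change over the root of F. The biological coefficient of variation was 0.251. Replicate libraries differed beyond sampling noise (chi-square of 84.5 and 61 per gene). The procedure was tested on simulated data. Changes of 2-fold or less were mostly missed there, and so were some larger ones. A gene that did not pass is thus not shown to be unchanged. Unchanged genes also made up more of the simulated calls than the threshold of 0.05 stands for.

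The genes, lists and roles were chosen with earlier results of these data known. All Kif, Kifc and Cenp genes may be named. Values in every library are given for genes that rose, the 4 lowest adjusted p-values and the 2 highest levels of each role, and genes whose call 1 library decides. From the other lists, the 4 with the lowest adjusted p are named, except 1 that is not reported here. Other genes were chosen for contrast after their values were seen. Marker lists of pro-B, dendritic, NK, T, myeloid and erythroid cells were read for counts and sums. Gene positions, overlaps, transcript lengths (median of basic coding transcripts) and shared 50-base words are from GENCODE vM21 (GRCm38), in which all 63 symbols were found. Promoters are from RefSeq (GRCm38.p6). For each gene the window listed first was read, which need not lie at the 5′ end of the annotated gene. Of the 53 windows, 46 ended in 30 bases found in a transcript of the gene, and 0 did so when reversed. Alternatives were sex as a block, each library left out, DESeq2 1.42.0, limma-voom (limma 3.58.1), scaling by DESeq2 size factors or by totals, and filters that were absent or stricter (mean count of 50 and, in 2 libraries, 1 CPM).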

Additional observations from a re-analysis of the deposited data

How the results depend on the processing

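The number of kinesin and CENP genes lower in the knockout was 18, and 17 to 22 under the 7 fits that kept all libraries. Leaving out 1 library gave 5 to 18 lower and 2 to 4 higher genes. Over all genes tested, 530 to 1580 were lower and 747 to 1649 higher with a library left out, the low ends being the fits without a knockout library. By role, leaving out 1 library gave 1 to 11 lower mitotic kinesins, 1 to 3 lower inner centromere genes, 0 to 1 lower and 1 to 2 higher transport kinesins, and 1 to 2 higher other kinesins. The median of mitotic kinesins ranged from -1.10 to -0.80, and that of transport kinesins, 0.08 with all libraries, was -0.004 with the stricter filter, 0.22 without a filter and 0.06 to 0.25 with 1 library left out (0.21 without control 55, 0.25 without control 69). With the stricter filter 1 transport kinesin was higher, since Kif1a was then not tested, and Kifc1 did not pass. With sex as a block 5 inner centromere genes were lower, among them Cenpn, Cenpo and Cenpq, and no call of the 22 genes was lost. All 22 calls were also kept by DESeq2, by limma-voom, without a filter and with either other scaling. Cenpb changed sign without control 69, at 0.18, was -0.51 without control 55 and passed in no fit. No paired analysis was possible by mouse number, because no number occurs in both genotypes; the fit with sex as a block matches the 1 female and 1 male of each genotype. The 3-library fits assume that the lone library varies like the other genotype. The floor of 3 counts corresponds to 0.0743 to 0.113 CPM, so genes such as Kif21a, Kif27 and Kif12 could not be compared at this depth.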
